A study of Homo sapiens with 54 samples.

Results

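A549 human lung cancer cells carrying an empty vector (E_V) and treated for 48 h with CP2 at 5 µM were compared with the same cells treated with vehicle (DMSO), with 3 libraries in each group. These 6 libraries are part of 54, which cover 18 groups of A549 cells with an empty vector or a vector that expresses USP18 (USP18_O_E), the protease that removes the ubiquitin-like protein ISG15 from its targets. The other groups used here are CP2 at 2 µM with an empty vector, CP14 and CP18 at 5 µM with an empty vector, and vehicle, 2 µM (in a plot) and 5 µM CP2 in USP18 cells, with 3 libraries in each. The labels give the compounds by code alone, and no structure is assigned to a code here. Each cell type is 1 engineered population of 1 cell line, and beyond a general statement on replicate experiments no source says whether these replicates are separate cultures, so p-values measure the spread between these libraries, which may be technical. Every gene that passed a filter on low counts was followed, 15760 of the 58870 genes listed, of which 26299 had a count in any of the 6 libraries.

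CYP1B1 and TIPARP were taken as markers of the response, and both are targets of the aryl hydrocarbon receptor (AhR). This receptor is a ligand-activated transcription factor that waits in the cytosol with HSP90 and its co-chaperones, and on binding a flat aromatic ligand it moves to the nucleus, pairs with ARNT and binds xenobiotic response elements (XREs) near its target genes. Its targets include the cytochrome P450 enzymes CYP1A1 and CYP1B1, which oxidise polycyclic aromatic compounds, and the ADP-ribosylase TIPARP, which feeds back to limit the receptor. In lung epithelium the pathway is best known as the response to the hydrocarbons of tobacco smoke.

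Total expected counts were 18072475 to 25609062 in the vehicle libraries and 16765140 to 23807841 in the CP2 libraries. Within a group, Pearson's r of log2 CPM across genes was between 0.99 and 1.00, a description of the libraries and not a test. Levels are CPM, counts scaled to the size of each library with edgeR's TMM factors. Adjusted p-values come from edgeR's quasi-likelihood test with Benjamini-Hochberg adjustment over all genes tested. USP18 was at 10.6, 10.7 and 11.1 CPM in empty-vector cells with vehicle and at 9.34, 10.5 and 8.81 CPM with 5 µM CP2 (log2 fold change -0.17, SE 0.07, adjusted p = 0.158), and at 1307 ± 18.5 CPM (SD, n = 3) in USP18 cells with vehicle, as the vector labels state. The A549 markers KRT8, KRT18, AKR1B10, ALDH1A1 and NQO1 were abundant in all 6 libraries, and CDKN2A, which A549 cells lack, had 0 counts with vehicle. Of 10 markers of other cell types, PTPRC, CD3E, PECAM1, CDH5, VWF and HBB had at most 6 counts in any library, while CD68 had 563 to 952, COL1A1 187 to 346, CD14 36 to 73 and COL3A1 8 to 20 counts, with CD14 and, in CPM, COL3A1 lower in each CP2 library than in any vehicle library. The 10 together summed to 50.6 to 54.4 CPM with vehicle and 50.4 to 51.4 CPM with CP2. RNAs without a poly(A) tail varied most within groups, from 69.0 to 513 CPM with vehicle and from 49.1 to 445 CPM with CP2, and none of the 9 tested passed the test, although 7 were lower without CP2 replicate 3 or without the filter on low counts. Mitochondrially encoded genes took 3.2% to 3.37% of the counts with vehicle and 2.47% to 3.88% with CP2, lowest in CP2 replicate 2.

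CP2 at 5 µM moved many genes by a little. At an adjusted p under 0.05, 837 of the 15760 genes tested were higher than with vehicle (5.31%) and 1076 were lower (6.83%), 1913 or 12.1% in all. The median change among them was 0.21 on the log2 scale for the genes that rose and -0.26 for those that fell, and 88.4% of them changed by less than 0.5. A change of more than 1 on the log2 scale was reached by 56 genes (0.355%), 24 higher (0.152%) and 32 lower (0.203%), of which 34 had a mean below 1 CPM. The 222 genes that changed by at least 0.5 were 70 higher and 152 lower. The median over all genes tested was 0.0022. All 3 treated libraries lay above or below all 3 vehicle libraries for 4335 genes (27.5%), 1990 above (12.6%) and 2345 below (14.9%). These counts rest on the spread of 12 libraries (vehicle and 5 µM CP2 in both cell types). Without vehicle replicate 1 or 2 the 1913 fell to 1148 and 1092, and the 56 to 24 and 32 (31 without CP2 replicate 2), with 19 higher and 13 lower among the 32 without vehicle replicate 2, and a fit of only these 6 libraries gave 1077 and 32, and DESeq2 gave 1726 and 6.

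**Figure D1:**
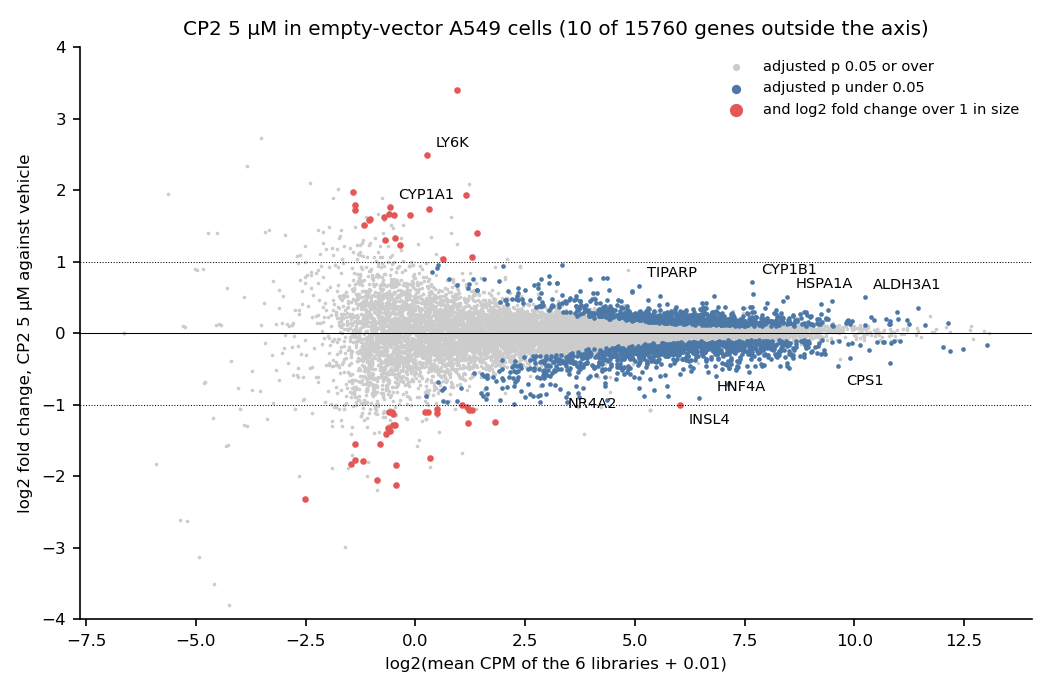
Log2 fold change of each gene with 5 µM CP2 against vehicle in empty-vector cells (y axis), by its mean level over the 6 libraries in CPM (log x axis). Each point is 1 of the 15760 genes tested, with genes at an adjusted p under 0.05 coloured. Most coloured points lie within 0.5 of zero, the largest changes lie at low levels, and 10 genes fall outside the axis.

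Of the 14 AhR targets tested, 6 rose, 1 fell and 7 did not pass the test, against 5.31% of all genes higher and 6.83% lower, and the median log2 fold change was 0.24 against 0.0022 over all genes. The markers CYP1B1 and TIPARP are among the 6, and list and markers were chosen with earlier results of these data known. The count and the median are therefore a description and no independent support. CYP1B1 (chr2:38066973-38109902, GRCh38) was at 158, 147 and 160.4 CPM with vehicle and 262, 270.2 and 229 CPM with 5 µM CP2. The groups do not overlap, and the lowest treated library lies well above the highest vehicle library. Its mean rose from 155 ± 7.37 to 254 ± 21.9 CPM (SD, n = 3; log2 fold change 0.71, SE 0.05, adjusted p = 2.28e-07). TIPARP (chr3:156673235-156706770) was at 24.9, 26.4 and 27.9 CPM with vehicle and 43.9, 45 and 35.7 CPM with 5 µM CP2. All treated libraries are again above all vehicle libraries, with CP2 replicate 3 the lowest of the treated (log2 fold change 0.66, SE 0.07, adjusted p = 8.08e-06). ALDH3A1 (chr17:19737984-19748943), an aldehyde dehydrogenase that A549 cells hold at a high level, was at 1025, 977 and 989.9 CPM with vehicle and 1383, 1358 and 1489 CPM with 5 µM CP2. The vehicle libraries lie within a narrow band and every treated library lies above it (log2 fold change 0.50, SE 0.04, adjusted p = 2.28e-07).

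CYP1A1 (chr15:74719542-74725536), the classical AhR target, was barely expressed. It had 5, 6 and 8 counts with vehicle and 21, 17 and 21 counts with 5 µM CP2, which is 0.235, 0.336 and 0.317 CPM and 0.892, 0.908 and 1.28 CPM. The groups do not overlap, yet the treated level stayed near 1 CPM (log2 fold change 1.76, SE 0.39, adjusted p = 0.00597). It passed the filter on low counts only through CP2-treated libraries, those of USP18 cells included, so the filter favoured a difference. Without it 5 of the 13 other targets tested rose, the markers CYP1B1 and TIPARP among them. The growth factor gene EREG was at 76, 73.6 and 87.6 CPM with vehicle and 115, 110.1 and 91.6 CPM with 5 µM CP2 (log2 fold change 0.42, SE 0.07, adjusted p = 0.000449), and STC2, which encodes the secreted glycoprotein stanniocalcin 2 and is also listed among the ATF4 targets, was at 30.4, 31.8 and 37.3 CPM with vehicle and 43, 50.2 and 43.6 CPM with 5 µM CP2 (log2 fold change 0.46, SE 0.08, adjusted p = 0.000832). For both, each treated library lies above each vehicle library. PTGS2 (cyclooxygenase 2) went the other way, from 173, 173 and 155 CPM with vehicle to 131, 116 and 121 CPM with CP2 (log2 fold change -0.44, SE 0.05, adjusted p = 1.06e-05). The quinone reductase NQO1, abundant in A549 cells, averaged 1756 ± 10.2 CPM with vehicle against 1821 ± 35.5 CPM with CP2 (log2 difference 0.06, adjusted p = 0.264). AHRR, the receptor's repressor, had a log2 difference of 0.49 that missed the threshold (adjusted p = 0.061) and passed it in 4 of 13 alternatives, and its reads may be split, since the table holds 2 rows of this name. HES1 did not pass (adjusted p = 0.0916, passing in 2 of 13 alternatives), nor did NFE2L2, UGT1A6, CYP2S1 and SLC7A5, and CYP1A2 and SERPINB2, with at most 4 counts in any of the 6 libraries, were too low to test.

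The promoters of 3 of the genes that rose are shown because the AhR acts through XREs near the start of transcription. Each runs from 250 bases before to 50 bases after the start that RefSeq lists (GRCh38.p14), 5′ to 3′ on the gene's strand, and capitals mark a match to the XRE core TNGCGTG on either strand.
CYP1A1 (chr15:74725479-74725778, minus strand): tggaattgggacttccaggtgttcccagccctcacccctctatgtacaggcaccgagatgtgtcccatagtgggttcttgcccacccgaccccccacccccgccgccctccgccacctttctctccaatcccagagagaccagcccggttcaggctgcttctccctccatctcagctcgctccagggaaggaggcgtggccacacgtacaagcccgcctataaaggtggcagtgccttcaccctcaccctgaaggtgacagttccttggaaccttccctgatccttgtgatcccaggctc
TIPARP (chr3:156674340-156674639, plus strand): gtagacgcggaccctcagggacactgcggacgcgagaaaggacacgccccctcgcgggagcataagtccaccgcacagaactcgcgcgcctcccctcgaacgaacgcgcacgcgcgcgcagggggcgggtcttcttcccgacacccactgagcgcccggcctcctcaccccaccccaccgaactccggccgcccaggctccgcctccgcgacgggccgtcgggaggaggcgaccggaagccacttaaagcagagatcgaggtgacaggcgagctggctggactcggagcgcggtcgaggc
STC2 (chr5:173328365-173328664, minus strand): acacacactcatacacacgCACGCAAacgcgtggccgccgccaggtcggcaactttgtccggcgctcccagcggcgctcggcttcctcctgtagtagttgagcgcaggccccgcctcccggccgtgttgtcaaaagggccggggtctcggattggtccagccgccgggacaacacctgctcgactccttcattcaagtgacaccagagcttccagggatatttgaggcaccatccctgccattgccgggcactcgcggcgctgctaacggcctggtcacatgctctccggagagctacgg

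STC2 holds 1 match, read on the strand opposite to the gene, 231 bases before the start, and the CYP1A1 and TIPARP windows, like that of EREG, hold none. TIPARP has several listed starts, of which the first was taken. No match says only that these letters are not in this window. Over all 27305 promoters of this length the core occurs in 5.51%. Among the 10994 tested genes with a promoter it occurs in 7.28%, among the 645 such genes that rose in 7.44% and among the 799 that fell in 6.38%. Of the 12 AhR targets with a promoter 6 hold it: AHRR, NQO1, UGT1A6, HES1, NFE2L2 and STC2. Of these, STC2 was the one whose change passed the test. CYP1B1 and ALDH3A1 are not among the 12. The antioxidant element TGACNNNGC, also read on both strands, occurs in 15.1% of the tested genes' promoters and in 16.4% of those of genes that rose, and the AP-1 site TGAGTCA in 3.13% and 3.57%.

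The receptor and its cytosolic partners did not move one way. AHR itself fell, from 96, 97.5 and 89.2 CPM with vehicle to 70.6, 74.3 and 71.5 CPM with CP2 (log2 fold change -0.38, SE 0.04, adjusted p = 8.18e-06). No treated library reaches the lowest vehicle library. The chaperones that hold the receptor rose: HSP90AA1 was at 2437, 2381 and 2599 CPM with vehicle and 3127, 3235 and 3099.9 CPM with 5 µM CP2 (log2 fold change 0.36, SE 0.03, adjusted p = 2.94e-06), HSP90AB1 rose by 0.19 and the co-chaperone PTGES3 (p23) by 0.21 on the log2 scale. The DNA-binding partners ARNT (log2 difference -0.11, adjusted p = 0.125) and ARNT2 (-0.11, adjusted p = 0.332) did not pass the test.

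**Figure D2:**
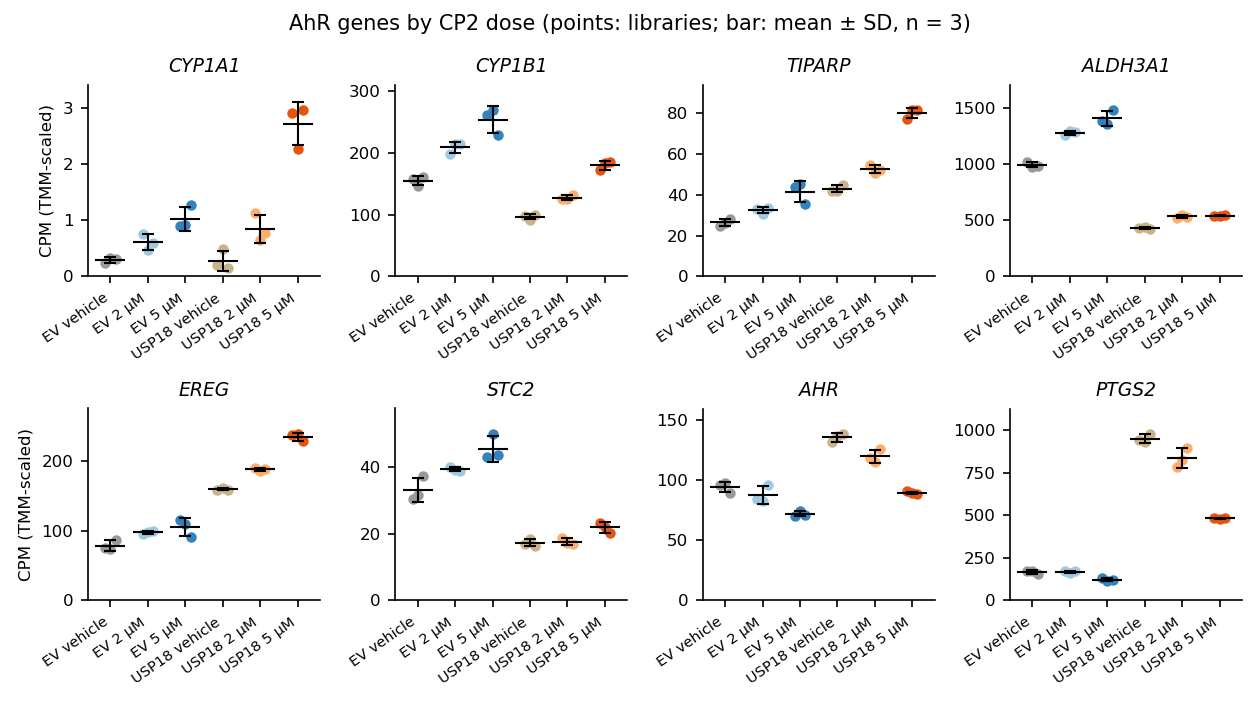
CPM of 8 genes (CYP1A1, CYP1B1, TIPARP, ALDH3A1, EREG, STC2, AHR and PTGS2) in cells with the empty vector or USP18 given vehicle, 2 µM or 5 µM CP2. Points are libraries and bars the mean ± SD of 3. In empty-vector cells CYP1B1 climbs from a mean of 155 over 209 to 254 CPM, and AHR and PTGS2 are lowest at 5 µM.

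Heat shock proteins, the chaperones that fold and refold cytosolic and mitochondrial proteins, were higher almost as a block. Of 18 tested, 17 rose and none fell, against 5.31% of all genes higher, with a median of 0.23 on the log2 scale and a largest rise of 0.51. The inducible HSP70 gene HSPA1A (chr6:31815543-31817946) was at 297, 288 and 289 CPM with vehicle and 389.8, 425 and 428 CPM with 5 µM CP2. The lowest treated library is far above the highest vehicle library (log2 fold change 0.51, SE 0.04, adjusted p = 2.28e-07), although its near-identical copy HSPA1B shares reads with it, so the split between them is uncertain. HSPA1B was at 221, 209.6 and 234 CPM with vehicle and 288, 287 and 313 CPM with 5 µM CP2 (log2 fold change 0.42, SE 0.04, adjusted p = 5.13e-06). The HSP40 co-chaperone DNAJA1 rose from 415 ± 15.1 to 509 ± 4.33 CPM (log2 fold change 0.30, SE 0.03, adjusted p = 7.63e-06). HSPH1 (log2 fold change 0.36), CHORDC1 (0.31), HSPA8 (0.30), FKBP4 (0.28) and the mitochondrial pair HSPD1 (0.18) and HSPE1 (0.20) followed. CRYAB, with 12 to 43 counts, was the exception (log2 difference -0.61, not passing). Over 13 alternative analyses 15 to 17 members rose and none fell.

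Tubulins, the subunits of microtubules, also rose, 10 of 11 tested and none lower, against 5.31% of all genes higher, with a median of 0.33. This list was drawn up after the values were seen and is given as a description. TUBA1A (chr12:49184686-49189080) was at 88.3, 89.7 and 96.7 CPM with vehicle and 125, 135 and 131 CPM with 5 µM CP2 (log2 fold change 0.51, SE 0.04, adjusted p = 1.1e-06). All treated libraries stand clear of all vehicle libraries. TUBB3, the neuronal-type beta tubulin, rose from 178 ± 8.41 to 227 ± 6.54 CPM (log2 fold change 0.36, SE 0.04, adjusted p = 4.91e-06), TUBA4A from 154 ± 12.5 to 197 ± 8.14 CPM, TUBB4B from 428 ± 19.4 to 522 ± 20.4 CPM and TUBA1C from 603 ± 37.7 to 754 ± 27 CPM. Tubulin genes resemble each other and TUBA1A and TUBA1C overlap at their ends, so reads may be shared between them. DYNLL1, a light chain of the dynein motor that runs on microtubules, rose as well, by 0.29 on the log2 scale (adjusted p = 0.000101).

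Genes of mitosis rose by small amounts, 15 of 28 tested and none lower, against 5.31% of all genes higher, with a median of 0.16. CCNB1, the cyclin that starts mitosis, was at 219, 206 and 227 CPM with vehicle and 253, 260.2 and 257 CPM with 5 µM CP2 (log2 fold change 0.25, SE 0.04, adjusted p = 0.000205). Treated libraries are closely spaced and all above the vehicle libraries. UBE2C and CDC20, which serve the anaphase-promoting complex, rose by 0.32 and 0.27 on the log2 scale, CCNB2 by 0.19 and the kinetochore protein gene NDC80 by 0.29. The proliferation marker MKI67 rose by 0.23 (adjusted p = 0.046), a value that leaned on CP2 replicate 2. That library had 12300 MKI67 counts of 18865965, against 12018 of 23807841 in replicate 1 and 8285 of 16765140 in replicate 3. The number of mitosis genes called is sensitive to single libraries, 8 without vehicle replicate 1 and 9 without vehicle replicate 2 or CP2 replicate 2. Genes of DNA replication leaned the other way: 6 of 25 fell and none rose, against 6.83% of all genes lower, with a median of -0.05. Among them are the helicase subunits MCM4 (-0.12), MCM5 (-0.16) and MCM6 (-0.12), the sliding clamp PCNA (-0.14) and the transcription factor E2F1 (-0.19), on the log2 scale. A fit of only these 6 libraries gave 2 falls, and without vehicle replicate 3 there were 5 falls and 2 rises. In bulk RNA, fewer cells in a phase and less RNA per cell cannot be told apart.

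Genes typical of hepatocytes, some of which A549 cells express at high levels, fell. Of 13 tested, 8 were lower and none higher, against 6.83% of all genes lower, with a median of -0.46. HNF4A (chr20:44355699-44432845), a nuclear receptor that drives hepatocyte and gut epithelial genes, was at 117, 133 and 113 CPM with vehicle and 84.6, 78.7 and 83.2 CPM with 5 µM CP2 (log2 fold change -0.55, SE 0.05, adjusted p = 3.02e-06). CPS1, the first enzyme of the urea cycle, was at 929, 946 and 871 CPM with vehicle and 673, 659 and 647 CPM with 5 µM CP2 (log2 fold change -0.47, SE 0.04, adjusted p = 5.15e-07). In both genes every treated library is below every vehicle library. The fibrinogen chains fell together, FGG from 139 ± 11.6 to 91.2 ± 10.8 CPM (log2 fold change -0.60), FGA (-0.43) and FGB (-0.46), with APOH (-0.42) and FOXA1 (-0.25). The defining hepatocyte products ALB, AFP, APOA1, APOB and TTR had at most 10 counts in any library, so part of the list is absent. TF, AGT and SERPINA1 were lower by more than most members (-0.74, -0.57 and -0.47) but varied more and did not pass. In each of 13 alternatives 7 or 8 members fell.

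Of 9 markers of epithelial and A549 cells 5 fell and none rose, against 6.83% of all genes lower, with a median of -0.23. E-cadherin (CDH1), the adhesion protein between epithelial cells, was at 219, 224 and 214 CPM with vehicle and 165, 154 and 155 CPM with 5 µM CP2. The groups are far apart relative to their spread (log2 fold change -0.46, SE 0.04, adjusted p = 1.46e-06). KRT8 fell from 6151 ± 51.7 to 5229 ± 234 CPM and KRT18 from 5034 ± 120.0 to 4229 ± 307 CPM. These keratin genes overlap on opposite strands, and no source states whether counting used the strand. The aldo-keto reductase AKR1C1 fell by 0.34 on the log2 scale. Among 17 genes of TGF-β signalling and the epithelial-mesenchymal transition, 3 rose and 2 fell, against 5.31% of all genes higher and 6.83% lower. VIM (vimentin) rose by 0.16 and CCN2 by 0.18, while CDH1 and FN1 (-0.22) fell. The calls of CCN2 and FN1 were each lost in 6 of 13 alternatives.

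**Figure D3:**
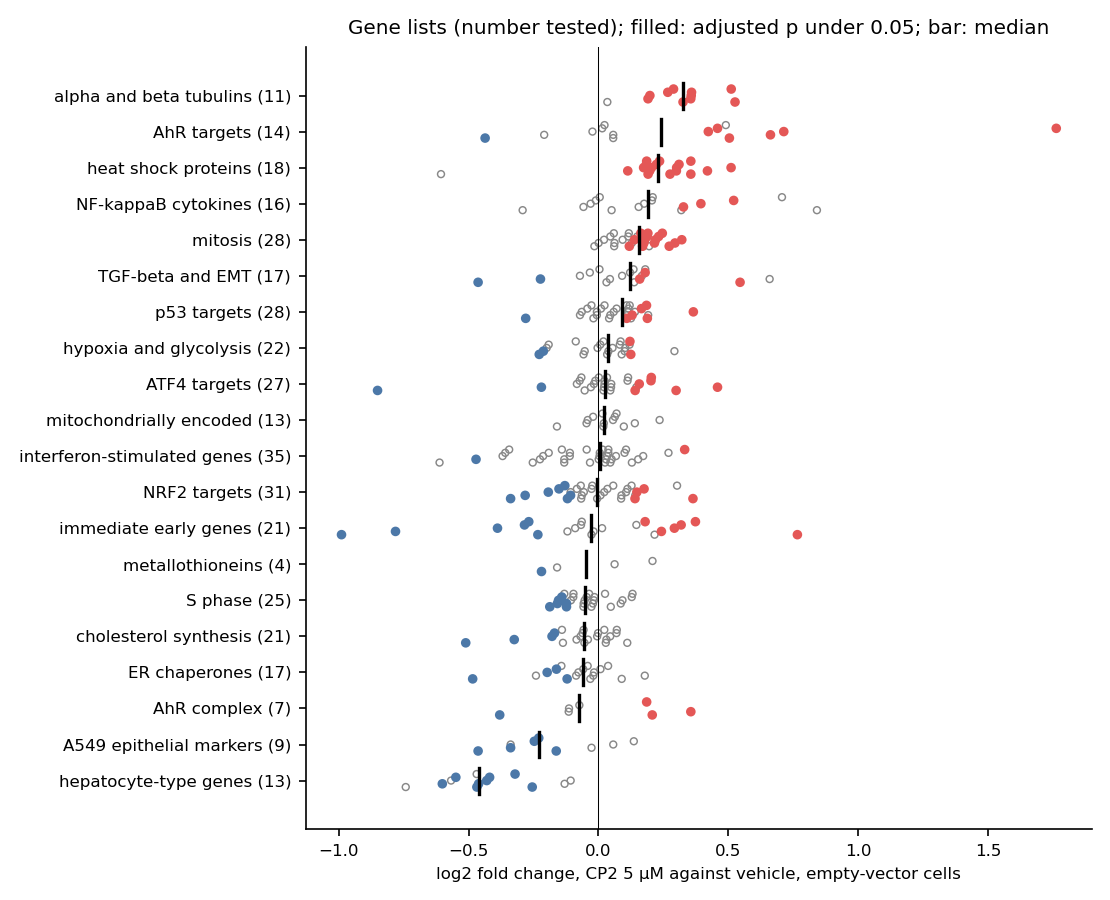
Log2 fold change with 5 µM CP2 against vehicle in empty-vector cells for the tested members of 20 gene lists. Each point is a gene, filled at an adjusted p under 0.05, and the bar is the list's median. The heat shock list lies almost wholly to the right of zero (17 of 18 filled), the hepatocyte-type list wholly to the left (8 of 13 filled).

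The 5 smallest adjusted p-values among the falls belonged to INSL4, ERBB3, TM4SF20, H19 and CD46. INSL4 (chr9:5231419-5235304), a placental hormone of the insulin family, was at 86.6, 96 and 79.1 CPM with vehicle and 43.5, 38.8 and 47.4 CPM with 5 µM CP2 (log2 fold change -1.01, SE 0.07, adjusted p = 1.99e-07). Every treated library is far below every vehicle library. ERBB3 (chr12:56076799-56103505), a receptor of the EGF receptor family, was at 70.9, 74.9 and 65.6 CPM with vehicle and 39.7, 36.4 and 38.2 CPM with 5 µM CP2 (log2 fold change -0.88, SE 0.06, adjusted p = 2.28e-07). TM4SF20, a membrane protein of the tetraspanin-like L6 family, was at 108, 133 and 106 CPM with vehicle and 63.9, 56.7 and 64.3 CPM with 5 µM CP2 (log2 fold change -0.90, SE 0.07, adjusted p = 4.21e-07). In each of these genes no treated library reaches a vehicle library. The imprinted noncoding RNA H19 fell from 48.2 ± 2.63 to 26.2 ± 3.39 CPM (log2 fold change -0.87, SE 0.07, adjusted p = 4.21e-07) and the complement regulator CD46 from 429.7 ± 17.4 to 305 ± 15.3 CPM (log2 fold change -0.49, SE 0.04, adjusted p = 4.21e-07). All 5 kept an adjusted p under 0.05 in all 13 alternatives.

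Called genes with a mean of at least 1 CPM and groups that do not overlap were few and mostly weak. LY6K (chr8:142700111-142705127), a surface antigen of testis and of some tumours, had the steadiest large rise, from 0.329, 0.393 and 0.357 CPM with vehicle to 2.42, 1.76 and 1.88 CPM with CP2 (log2 fold change 2.49, SE 0.31, adjusted p = 3.99e-05). The vehicle libraries are nearly alike and every treated library is several times above them. LY6K passed the filter on low counts only through its CP2-treated libraries. The noncoding genes AC145207.5 (log2 fold change 1.39) and AL035071.1 (1.73) also rose in all 11 to 13 alternatives that tested them, whereas the rise of KIAA0408 (1.93) was lost without vehicle replicate 3 (adjusted p up to 0.0602) and those of AC009133.6 (3.39), BCL2A1 (1.07) and FAM95B1 (1.04) in 3 to 5 alternatives each. Among the largest falls, RARRES1 (chr3:158696892-158732489), a retinoid-responsive gene, went from 3.95, 3.36 and 2.46 CPM to 1.74, 0.961 and 1.28 CPM (log2 fold change -1.26, SE 0.28, adjusted p = 0.00654) and held in all 12 alternatives that tested it. AC006064.6 fell from 5.46, 15.2 and 5.08 CPM to 0.509, 0 and 0 CPM, a noncoding gene whose vehicle libraries differ widely among themselves. KRT83, SPTLC3, GDF7, SLC5A9, HABP2, AL121594.1, AC004922.1 and PACSIN1 fell by 1.07 to 1.75 on the log2 scale at low levels, and each lost its call in at least 1 alternative.

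The stress lists moved mostly by small amounts, and the test was passed by 35.5% of the NRF2, 25% of the p53, 29.6% of the ATF4 and 23.5% of the endoplasmic reticulum list against 12.1% of all genes. Of 31 NRF2 targets, the antioxidant genes, 4 rose and 7 fell, a median of -0.01. Haem oxygenase HMOX1 was at 178, 159 and 184 CPM with vehicle and 213, 216 and 239.6 CPM with 5 µM CP2 (log2 fold change 0.36, SE 0.05, adjusted p = 0.000209), with all treated libraries above the vehicle libraries, and the autophagy receptor SQSTM1 rose by 0.18 and the ferritin heavy chain FTH1 by 0.14 on the log2 scale, whereas AKR1C1 (-0.34), AKR1C2 (-0.19), whose reads may be shared with other AKR1C genes, and the glutathione peroxidase GPX2 (-0.28) fell. Of 28 p53 targets, 6 rose and 1 fell, a median of 0.09: the oxidoreductase gene TP53I3 was at 101, 102 and 109 CPM with vehicle and 133, 128 and 139.8 CPM with 5 µM CP2 (log2 fold change 0.37, SE 0.04, adjusted p = 2e-05), and the CDK inhibitor CDKN1A rose by 0.19 and the death effector BAX by 0.19. Of 27 ATF4 targets, 6 rose and 2 fell, a median of 0.02. The asparagine and serine synthesis genes ASNS (0.30), PSAT1 (0.20) and PHGDH (0.20) rose and the cystathionine lyase gene CTH fell from 10.1 ± 0.393 to 5.57 ± 0.635 CPM (log2 fold change -0.85, SE 0.10, adjusted p = 3.43e-05). Of 17 genes of the endoplasmic reticulum, 4 fell and none rose, a median of -0.06. XBP1, the transcription factor of the unfolded protein response, was at 163, 175 and 155 CPM with vehicle and 118, 112 and 119.8 CPM with 5 µM CP2 (log2 fold change -0.48, SE 0.04, adjusted p = 1.1e-06), and no treated library reaches a vehicle library. These counts move with single libraries. Without vehicle replicate 1 or 2, 2 NRF2 targets rose and 4 or 3 fell, 3 p53 targets and 4 ATF4 targets rose, and 2 genes of the endoplasmic reticulum fell. Without CP2 replicate 2, 2 NRF2 targets, 3 p53 targets and 4 ATF4 targets rose, and 3 p53 targets rose without CP2 replicate 3 or vehicle replicate 3. Without CP2 replicate 1, 7 NRF2 targets rose, and 2 genes of the endoplasmic reticulum rose and 5 fell. A fit of only these 6 libraries gave 2 rises and 2 falls of NRF2 targets, with AKR1C2 no longer passing, 3 rises of p53 targets, 4 rises and 2 falls of ATF4 targets and 2 falls in the endoplasmic reticulum list.

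Immediate early genes, which answer growth signals within minutes, split into 6 higher and 6 lower of 21 tested. Over all genes 5.31% were higher and 6.83% lower. FOSL1, a FOS-family partner of JUN, was at 12.6, 14.4 and 16.2 CPM with vehicle and 24.3, 27.2 and 21.9 CPM with 5 µM CP2 (log2 fold change 0.77, SE 0.10, adjusted p = 4.05e-05), and JUN rose by 0.32, KLF2 by 0.37 and CCN1 by 0.29 on the log2 scale. The NR4A orphan nuclear receptors fell: NR4A2 was at 11.9, 12.3 and 12.9 CPM with vehicle and 7.43, 6.68 and 7.35 CPM with 5 µM CP2 (log2 fold change -0.78, SE 0.08, adjusted p = 4.49e-06), NR4A1 changed by -0.39 and NR4A3 by -0.99. FOS (-0.27), JUNB (-0.23) and the RNA-decay factor ZFP36 (-0.28) were lower too. In NR4A2 and FOSL1 the groups do not overlap. Interferon-stimulated genes hardly moved: of 35 tested, the peptide transporter TAP1 rose (0.33) and the oligoadenylate synthetase OAS1 fell (-0.47), 5.71% against 12.1% of all genes, with a median of 0.00. Of 16 NF-κB genes 3 rose, against 5.31% of all genes higher. NFKB2 went from 39 ± 3.68 to 55.9 ± 1.62 CPM (log2 fold change 0.52, SE 0.06, adjusted p = 1.14e-05). The others were BIRC3 (0.33) and IRAK2 (0.39, lost in 4 of 13 alternatives, with 2 rises in all without vehicle replicate 1). Of 21 genes of cholesterol synthesis, 4 fell and none rose, against 6.83% of all genes lower. Among them are the sterol-regulated transcription factor SREBF2 (-0.18) and INSIG1 (-0.17, lost in 3 of 13). Of 22 hypoxia and glycolysis genes 2 rose and 2 fell, against 5.31% of all genes higher and 6.83% lower. The glucose transporter SLC2A1 (0.12) and lactate dehydrogenase LDHA (0.12) rose and the transporter SLC2A3 (-0.23) and NDRG1 (-0.21) fell. Without vehicle replicate 1 or 2 neither rise was called (SLC2A1 lost in 6 and LDHA in 3 of 13 alternatives). Without CP2 replicate 3 there were 3 rises and 4 falls. Of 4 metallothionein-list genes the zinc exporter SLC30A1 fell (-0.22), against 6.83% of all genes lower. None of 13 mitochondrially encoded or 12 replication-dependent histone genes passed, against 12.1% of all genes. However, 1 mitochondrial gene rose without CP2 replicate 2, and 3 rose and 1 fell without the filter on low counts. Among histone genes, 1 fell without CP2 replicate 3 and 1 rose with all 54 libraries. Of 20 tested genes that the study names in its text, some from sequencing of this series and others from a protein assay, 25% passed, against 12.1% of all genes. TUBA1C, TUBA4A, DYNLL1 and NME1 rose and NR4A2 fell. NME1 was not called, leaving 3 rises, in a fit of only these 6 libraries. The same held without vehicle replicate 1 or 2 or CP2 replicate 2 or 3, while 5 rose without CP2 replicate 1.

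At 2 µM the response was much smaller. Against vehicle, 36 of 15600 genes (0.231%) had an adjusted p under 0.05, 9 higher (0.0577%) and 27 lower (0.173%), in a fit of the 9 empty-vector libraries with vehicle, 2 µM and 5 µM. A direct test of 5 µM against 2 µM gave 599 genes (3.84%), 230 higher (1.47%) and 369 lower (2.37%) at 5 µM, and 10 of these differed by more than 1 on the log2 scale (0.0641%), 8 higher (0.0513%) and 2 lower (0.0128%). DESeq2 called none of the latter (738 genes at any size, 2286 at an unadjusted p under 0.05). The 599 rest on all 2 µM libraries, with 151, 248 and 113 genes without 2 µM replicate 1, 2 and 3. CYP1B1 was at 198, 215 and 214 CPM with 2 µM, between its levels with vehicle and 5 µM (5 µM against 2 µM, log2 difference 0.29, SE 0.05, adjusted p = 0.0107). TIPARP, at 33.1, 30.7 and 33.4 CPM with 2 µM, differed between the doses by 0.37 (adjusted p = 0.0182). ALDH3A1 was already at 1284 ± 18.2 CPM with 2 µM (log2 fold change 0.36 against vehicle, adjusted p = 0.00256), and its difference between the doses, 0.14, missed the threshold (adjusted p = 0.0603). CYP1A1, EREG and STC2 also lay between vehicle and 5 µM on average, at 0.605, 98.1 and 39.4 CPM, and for none of these did the doses differ by the test.

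Other genes moved at 5 µM and hardly at 2 µM. HSPA1A was at 310.4, 306 and 285 CPM with 2 µM, within reach of its vehicle libraries, and differed from 5 µM by 0.47 (SE 0.04, adjusted p = 0.000111). None of the 18 heat shock genes passed the test at 2 µM, where 0.231% of all genes did, and 10 differed between the doses, against 3.84% of all genes. SUSD2, a membrane protein, was at 188 CPM with vehicle, 189 CPM with 2 µM and 142 CPM with 5 µM (5 µM against 2 µM -0.40, adjusted p = 0.000111). PTGS2 (-0.45), the neutrophil-attracting chemokine CXCL5 (-0.39) and TUBA1A (0.41) had the same form, with 2 µM means of 168, 260.0 and 98.4 CPM. INSL4 and ERBB3 instead fell in steps, INSL4 over 59.9 ± 1.8 CPM and ERBB3 over 55.3 ± 2.1 CPM at 2 µM, with differences between the doses of -0.47 and -0.53 (adjusted p = 0.00357 and 0.000448).

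With 5 µM CP2, USP18 cells had 2989 of 15760 genes (19%) at an adjusted p under 0.05 against their own vehicle, 1364 up (8.65%) and 1625 down (10.3%), and 122 by more than 1 on the log2 scale (0.774%). Of the 1913 genes from empty-vector cells, 1179 passed here too, 61.6% of the former and 39.4% of the latter, 1168 in the same direction. The vehicle and treated libraries of the 2 cell types are separate. A test of the difference itself, the interaction of treatment and vector, gave 145 genes (0.92%), 42 with a higher log2 change in USP18 cells (0.266%) and 103 with a lower one (0.654%), and 126 of them changed by more in USP18 cells. The split is not stable: without CP2 replicate 3 with the empty vector 267 genes passed, 136 higher and 131 lower, and DESeq2 gave 93 higher and 128 lower. Without any one of 7 other libraries 87 to 95 genes passed: vehicle replicates 1 and 3 with the empty vector, vehicle replicates 1, 2 and 3 with USP18, and CP2 replicates 2 and 3 with USP18. CYP1B1 rose from 96.3 ± 4.06 to 180.0 ± 7.11 CPM in USP18 cells (log2 fold change 0.89), and its response did not differ by the test (interaction 0.18, SE 0.08, adjusted p = 0.358). The same holds for TIPARP (interaction 0.23, adjusted p = 0.361), CYP1A1, which went from 0.277 to 2.72 CPM (log2 fold change 3.26, interaction adjusted p = 0.293), and ALDH3A1 (-0.19, adjusted p = 0.0883).

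PTGS2 differed. In USP18 cells it fell from 942, 932 and 982 CPM to 483, 479 and 486 CPM, more than in empty-vector cells (interaction -0.55, SE 0.07, adjusted p = 0.000199). TM4SF1, a surface protein of the L6 family, fell by more too (interaction -0.49, adjusted p = 0.000104), from 981 to 580.5 CPM, as did the secretory granule protein CHGB (-0.80), the serine protease PRSS23 (-0.46), GPRC5A (-0.48), NR4A2 (-0.79) and XBP1 (-0.38). CCN2 rose with the empty vector (0.18) but fell with USP18 (-0.32, interaction -0.50, adjusted p = 0.0013). Replication genes also parted: 6 of 25 fell with the empty vector, whereas 16 rose and none fell in USP18 cells (median 0.17), and for 8 of the 25 the interaction passed, among them MCM4 (0.31, adjusted p = 0.00108) and MCM5 (0.32, adjusted p = 0.00531). Of 17 genes of the endoplasmic reticulum 4 fell with the empty vector and 16 with USP18, with an interaction for 6. Over all genes 5.31% rose and 6.83% fell with the empty vector, 8.65% rose and 10.3% fell with USP18, and 0.92% had an interaction. The heat shock list had no interaction, and 16 of its members rose in USP18 cells (median 0.30).

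**Figure D4:**
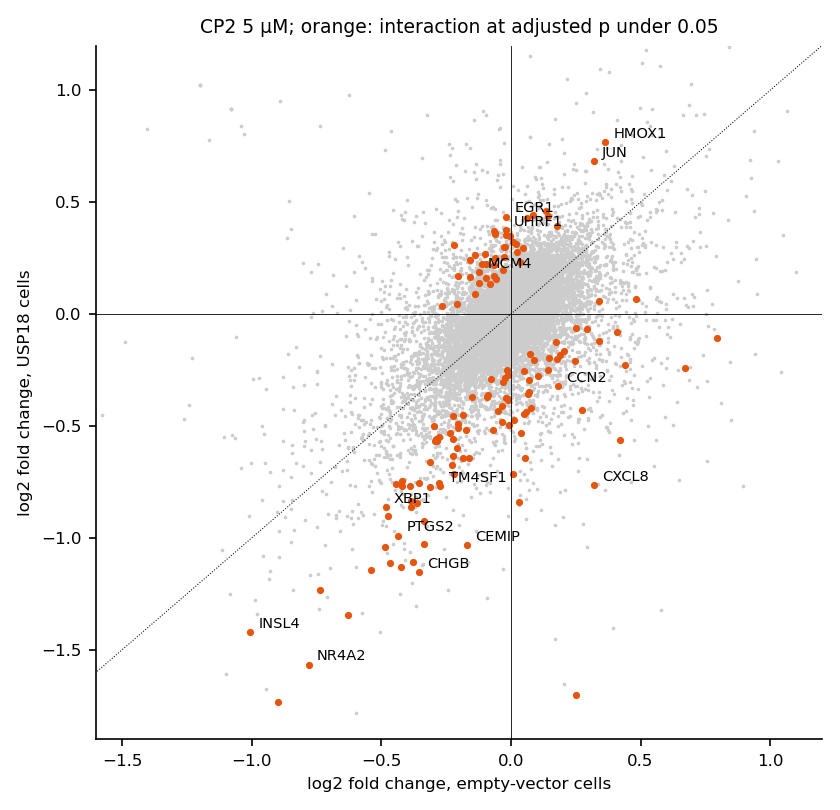
Log2 fold change with 5 µM CP2 in USP18 cells (y axis) against that in empty-vector cells (x axis) for the 13789 genes with a mean of at least 1 CPM. Orange points are the 141 of these whose interaction has an adjusted p under 0.05, and 41 genes fall outside the axes. Most orange points lie below the diagonal.

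Compounds were compared at the matched dose of 5 µM and 48 h in empty-vector cells, CP2 with CP18 and CP2 with CP14, 2 pairs with p-values adjusted over both. Against CP18, 208 of 15648 genes (1.33%) differed, 89 higher with CP2 (0.569%) and 119 lower (0.76%), and 40 by more than 1 on the log2 scale (0.256%). The 208 became 788 without CP18 replicate 3, 118 without CP2 replicate 2, 1 with only these 6 libraries in the fit and 584 with all 54. Adjustment within this pair alone left 4 genes: EGR1, PPP1R15A, AC006064.6 and AC008012.1. At an unadjusted p under 0.05 there were 812 of the 15648 genes. The other differences from CP18, that of CYP1B1 included, did not pass when adjusted within the pair. Of the 1906 genes tested here that had changed with CP2 against vehicle, 64 differed between the compounds. For 1755 the 95% interval of the difference lay within 0.5 of zero on the log2 scale, with a median half-width of 0.139. That margin exceeds most of the changes against vehicle, 88.4% of the 1913 being under 0.5. The count therefore cannot show that the compounds act alike. CYP1B1 was higher with CP2, at 254 ± 21.9 CPM against 212 ± 16.4 CPM with CP18 (log2 difference 0.26, interval 0.12 to 0.40, adjusted p = 0.00452). TIPARP was not shown to differ (log2 difference 0.04, interval -0.18 to 0.26), nor were HSPA1A (0.08, interval -0.01 to 0.18), CPS1 (0.02, interval -0.08 to 0.13) and LY6K (-0.12, interval -0.70 to 0.46). None of the 18 heat shock, 28 mitosis or 13 hepatocyte-type genes differed between CP2 and CP18, which is near the share of all genes (1.33%).

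Immediate early genes were the list with the most differences from CP18, 10 of 21, all lower with CP2, against 0.76% of all genes. Adjusted within the pair, EGR1 alone of these passed, and PTGS2, CXCL5 and KRT4, given below, did not. A fit of only these 6 libraries left 1 gene in all. NR4A1 was at 149.8, 128 and 138 CPM with CP2 and 169.6, 159 and 217 CPM with CP18, against a vehicle mean of 182 CPM (log2 difference -0.39, interval -0.58 to -0.20, adjusted p = 0.00224). EGR1, a zinc finger transcription factor outside the rule for named genes and chosen after its values were seen, was at a mean of 230.4 CPM with CP2 and 307 CPM with CP18 (log2 difference -0.41, adjusted p = 7.55e-06). CCN2 was lower with CP2 (-0.34, interval -0.46 to -0.21), as were PTGS2 (-0.24, interval -0.38 to -0.09) and CXCL5 (-0.28, interval -0.40 to -0.16). KRT4, a keratin of stratified epithelia, was at 9.72, 8.17 and 9.9 CPM with CP2 and 14.4, 15.4 and 14.1 CPM with CP18 (-0.66, interval -0.90 to -0.41, adjusted p = 0.000247). AC008012.1 had 0 counts with vehicle and 2 µM CP2 and 23, 33 and 38 counts with 5 µM CP2, at least 11.8-fold higher against 3 counts per vehicle library. It passed the filter in the fit against vehicle only through these libraries, so it had to differ there. The same gene was at 0, 3.75 and 0 CPM in the vehicle-treated USP18 libraries and at 0 in CP2-treated USP18 cells and with CP18. It was also present with 5 µM CP14 in empty-vector cells, so it is not particular to CP2. Its call against vehicle was lost in 6 of 11 alternatives.

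CP14 differed from CP2 in 8137 genes (52%), 1769 of them by more than 1 on the log2 scale (11.3%), 940 higher with CP2 (6.01%) and 829 lower (5.3%). Of the 1906 genes, 1331 differed, 321 by more than 1. Mitosis genes were far lower with CP14 and all 28 differed: CCNB1 was at 253, 260.2 and 257 CPM with CP2 and 64.8, 63.3 and 67.1 CPM with CP14 (log2 difference 1.98, SE 0.05, adjusted p = 1.08e-14). KIF20A, a mitotic kinesin, differed by 2.86 and the survivin gene BIRC5 by 2.12. FAM129A was at 9.62 ± 0.0668 CPM with CP2 and 214 ± 1.07 CPM with CP14 (-4.48, SE 0.08), and SLFN5 at 29.7 ± 2.12 and 227 ± 6.7 CPM (-2.93). HSPA1A was higher with CP2 (1.52), at 145 CPM with CP14, below its vehicle mean. CYP1B1 was lower with CP2 than with CP14 (-0.32, SE 0.06, adjusted p = 0.000726) and TIPARP likewise (-0.98), whereas ALDH3A1 was higher with CP2 (1.26). TUBA1A was not shown to differ, at 130.4 CPM with CP2 and 131 CPM with CP14 (SE of the log2 difference 0.05, adjusted p = 0.966).

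**Figure D5:**
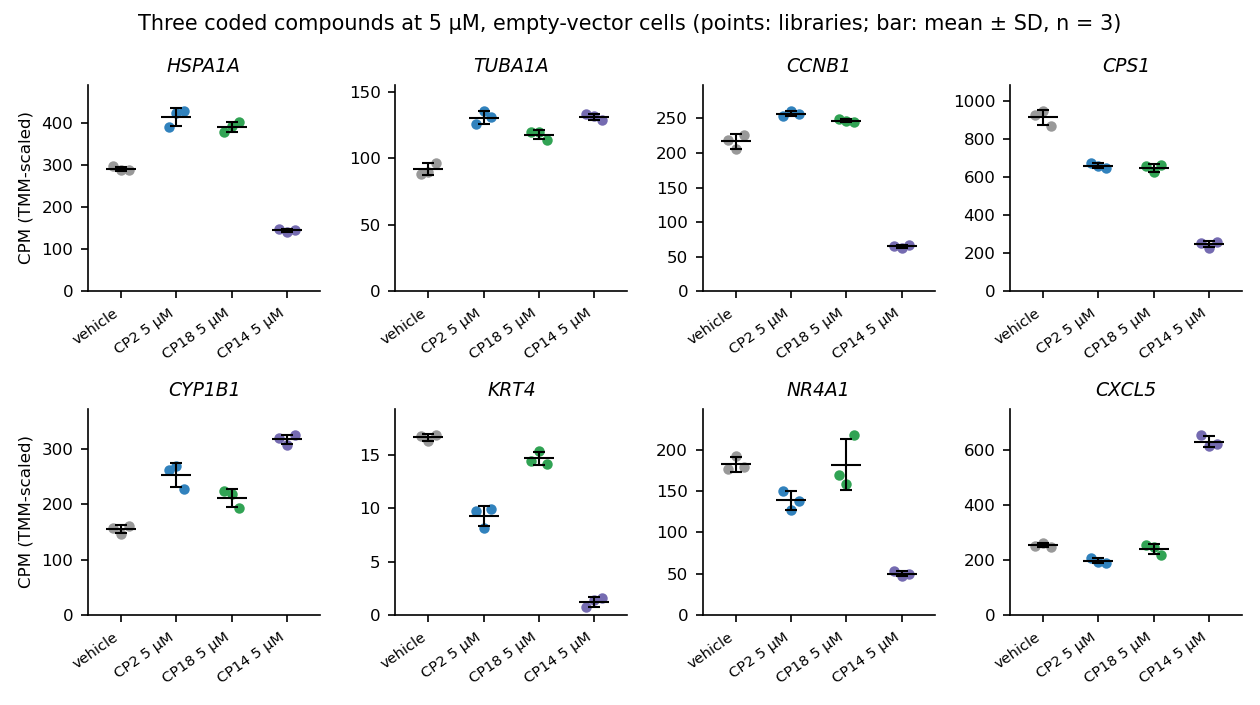
CPM of 8 genes (HSPA1A, TUBA1A, CCNB1, CPS1, CYP1B1, KRT4, NR4A1 and CXCL5) in empty-vector cells with vehicle and with CP2, CP18 and CP14 at 5 µM. Points are libraries and bars the mean ± SD of 3. CP2 and CP18 lie close together for HSPA1A, CPS1 and CCNB1, CP2 lies below CP18 for KRT4, NR4A1 and CXCL5, and CP14 stands apart for CCNB1, at a mean of 65.1 CPM.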

How the data were processed

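RNA from A549 cells was sequenced, and the authors deposited 1 table of expected counts per gene, estimated by RSEM and not scaled between libraries. According to the methods and the submitters' processing notes, trimming used cutadapt 1.18, alignment STAR 2.7.0f on hg38 and counting RSEM (version 1.3.1 in the notes). The labels describe poly(A) capture with a stranded kit, whereas the methods give depletion of rRNA, and the methods name a mouse annotation for RSEM although the gene identifiers are human. The strand setting of the counting is not given in the sources used here. Groups came from the labels.

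Of the deposited expected counts, 94% were whole numbers, and all were rounded. The model was that of edgeR 4.0.16 in R 4.3.3: TMM factors, genes kept by filterByExpr (count minimum 10, total minimum 15), its quasi-likelihood test, and p-values adjusted after Benjamini and Hochberg. The main fit held 12 libraries (vehicle and 5 µM CP2, both cell types), the dose fit 9 and the compound fit 12 (vehicle, CP2, CP14 and CP18 at 5 µM, empty vector). Calls needed an adjusted p under 0.05, and were counted once at any size and once for changes beyond 1 on the log2 scale. Levels are CPM on 1 TMM scale over the 54 libraries. A group with at most 3 counts in every library is at the floor. Replicates were separate libraries, since their counts differed beyond sampling (chi-square 2.68 to 8.91 per gene), and replicate numbers did not pair the libraries.

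The gene lists and markers were chosen with earlier results of these data known. Named genes are the 2 markers, the 10 largest rises and falls among called genes with groups that do not overlap and a mean of at least 1 CPM, the 5 smallest adjusted p-values in each direction, up to 4 members per list that passed (all AhR genes), USP18, and the 5 smallest adjusted p-values of each direct comparison among genes that passed in the main one. Further list members named in the text were chosen after their values were seen. Coordinates were matched by gene identifier to GENCODE on GRCh38. The scripts were tested on simulated data. Alternatives were RLE size factors, other filters, a replicate block, DESeq2 1.42.0, other sets of libraries in the fit and leaving out each library. Other doses and treatments were not analysed here.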

Additional observations from a re-analysis of the deposited data

Results flagged for a closer look

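The response to 5 µM CP2 differed between USP18 and empty-vector cells for 145 genes by the interaction test (edgeR, adjusted p under 0.05), and 21 genes named by the rule are among them, 7 with a higher log2 change in USP18 cells and 14 with a lower one. EGR1 (0.45) and MCM6 (0.26), named outside the rule, passed as well. Values below are the log2 change in USP18 cells minus that in empty-vector cells.

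The log2 change was lower in USP18 cells for TM4SF1 (-0.49), PRSS23 (-0.46), GPRC5A (-0.48), CHGB (-0.80), CXCL5 (-0.49), FN1 (-0.41) and INSL4 (-0.41). The same held for the glucose transporter SLC2A3 (-0.45), PTGS2 (-0.55), the nuclear receptors NR4A1 (-0.38) and NR4A2 (-0.79) and the transcription factor XBP1 (-0.38). CCN2 (-0.50) rose in one cell type and fell in the other. HMOX1 (0.40), SQSTM1 (0.22) and JUN (0.37) rose by more in USP18 cells. MCM4 (0.31), MCM5 (0.32) and PCNA (0.23) fell in empty-vector cells and rose in USP18 cells, and the amino acid transporter SLC7A5 (0.25) rose in USP18 cells, with a log2 change of 0.02 in empty-vector cells that did not pass.

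AC008012.1 (-15.82) is a fitted value between groups at 0 counts and gives no size. It was at 0.977, 1.76 and 2.31 CPM in CP2-treated and 0 in vehicle-treated empty-vector cells, and in USP18 cells at 0, 3.75 and 0 CPM with vehicle and 0 with CP2. It passed the filter only through the CP2-treated empty-vector libraries.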

How the results depend on the processing

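Of the 56 genes past log2 1, 34 had a mean below 1 CPM. No named gene whose change passed the test turned its direction under these alternatives, and among those that did not pass, UGT1A6, CYP2S1 and SLC7A5 had differences on both sides of zero. The 56 genes called became 130 without the filter on low counts, 11 with at least 10 counts in every library, 32 with only the groups compared in the fit and 6 with DESeq2, which gave no adjusted p for 3361 genes, and 24 to 74 when 1 library was left out. The 1913 genes at an adjusted p under 0.05 became 1077 with only the groups compared and 1092 to 2040 with 1 library left out. The interaction count of 145 became 438 without the filter and 221 with DESeq2 (87 to 267 with 1 library left out). The 10 genes that differed between 5 and 2 µM became 86 without the filter, 5 with at least 10 counts, 23 with all 54 libraries and 0 with DESeq2, which still gave 738 at an adjusted p of any size and 2286 at an unadjusted p under 0.05 (2 to 23 with 1 library left out). The 40 genes that differed between CP2 and CP18 became 128 without the filter, 5 with at least 10 counts, 1 with only the groups compared and 2 with adjustment within the pair (38 to 60 with 1 library left out), and the 1769 for CP14 ran from 1255 to 1997. Apart from the fits with fewer genes or libraries, the cause was not tested. Libraries with the same replicate number did not deviate together (r from -0.156 to -0.017), and a replicate block gave 44 called genes, 1778 at an adjusted p under 0.05, 127 interactions, 8 for dose, 1749 for CP14 and 38 for CP18. Of the named genes' calls, 761 of 790 kept their side of the threshold under alternatives that keep all libraries and 625 of 702 with 1 library left out. No scaling or set of libraries moved the median of all genes beyond -0.012 to 0.004. Each fit scales the libraries on the premise that most genes do not change, which itself keeps this median small.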
